A study of Mus musculus with 6 samples.

Results

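Transcripts of 41 genes that act in mitosis were compared between wild-type (WT) and Yme1l-/- mouse embryonic fibroblasts (MEFs), with 3 RNA sequencing libraries of each genotype. These genes were chosen by name: a locus of the deposited raw count table was taken when its name, split at commas, held 1 of the 41 symbols. All 41 were found among 51499 loci. After the filter on low counts, 40 of them remained among 13867 tested loci, and only Nek2 was removed. Both genotypes came from MEFs with floxed Yme1l alleles that had been immortalized with SV40 large T antigen. Both had been exposed to Cre and cloned: WT cells kept the floxed gene (Yme1l fl/fl), whereas Yme1l-/- cells had lost it, so that the groups also differ as clones. The product of Yme1l is a protease that sits in the inner membrane of mitochondria, and the comparison addresses what its loss does to the transcriptome. Neither the labels nor the methods say how the 3 cultures relate to clones, so the p-values measure only the spread between cultures.

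A cell enters mitosis when cyclin A and cyclin B activate the kinase CDK1. Kinetochores, protein assemblies on the centromeres, then attach chromosomes to spindle microtubules, and a checkpoint holds the anaphase-promoting complex (APC/C) back until all are attached. The APC/C next marks cyclin B and securin for destruction, separase cuts the cohesin rings that hold sister chromatids together, and cytokinesis divides the cell. Transcripts of most of these genes accumulate in G2 and M phase under the control of B-MYB, FOXM1, the MuvB complex and NF-Y, and they are widely read as markers of proliferation. SV40 large T antigen binds the retinoblastoma protein and p53, which normally restrain cell cycle genes, and both genotypes carry it.

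The libraries held 33180867 to 34012520 counted fragments in WT and 34624075 to 49351107 in Yme1l-/-. The targeted gene, Yme1l1 in the files, was at 188.7 ± 5.16 CPM (fragment counts relative to the TMM-scaled library size; mean ± SD, n = 3) in WT and at 39.1 ± 1.34 CPM in Yme1l-/-, in the direction of the labels. Fibroblast markers summed to 11327 to 11908 CPM in WT and 6971 to 7451 CPM in Yme1l-/- (13 genes, led by Fn1, Vim and collagen genes), although Thy1, Lum and Fap had at most 11 fragments in any library. Of 10 fibroblast markers tested, 8 were called lower and 1 (Col1a1) higher in Yme1l-/-. Epithelial markers (7 genes) summed to 142 to 159 CPM in WT and 2.82 to 3.71 CPM in Yme1l-/-, mostly from Krt19 and Krt18. Endothelial markers (5 genes) summed to at most 2.17 CPM in a library and blood markers (5 genes, Adgre1 and Cd3e at 0) to at most 4.14 CPM. These marker levels moved with the genotype, and their part in the results on mitotic genes was not tested.

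Mitotic transcripts were moderately lower in Yme1l-/- cells. Of the 40 genes tested, 26 (65.0%) were called lower and 5 (12.5%) higher, and 9 were not called (quasi-likelihood test of edgeR, adjusted p under 0.05). Among all 13867 loci, 34.1% were called lower and 33.6% higher. The median log2 fold change (Yme1l-/- over WT) of the 40 genes was -0.25, with an interquartile range of -0.45 to -0.08, where all loci had a median of 0.00 and an interquartile range of -0.36 to 0.41. No gene changed by 2-fold or more, whereas 17.7% of all loci were called with a change of at least that size. The changes lay between -0.83 for Ube2c and 0.82 for Pttg1. In 30 genes every Yme1l-/- library lay below every WT library, and in 5 every one lay above (all loci, 36.0% and 35.9%). Summed over the 40 genes, the libraries reached 8498, 8477 and 8798 CPM in WT and 7061, 7254 and 7243 CPM in Yme1l-/-, so the groups did not overlap. With the median log2 fold change of each gene's chromosome removed, 29 genes were called lower and 3 higher (all loci, 31.7% and 31.1%), and values from that fit are given beside each gene whose call, direction or size (by over 1.5 times) it changed. In bulk RNA, fewer cells in G2 and mitosis and less of each transcript per cell cannot be told apart.

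**Figure D1:**
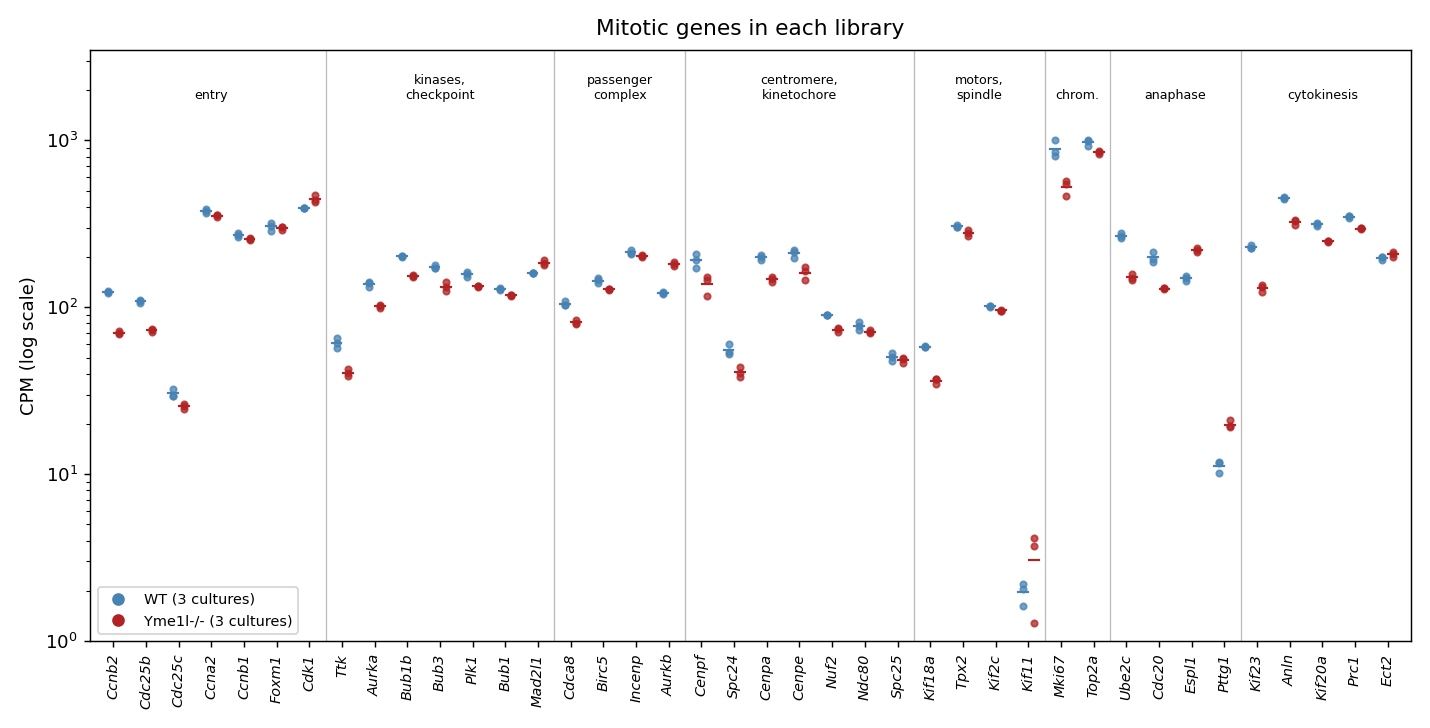
Level of the 40 tested mitotic genes in each library, in CPM on a log scale, grouped by role; points are cultures (blue, WT; red, Yme1l-/-) and bars are means of 3. Most red points lie below the blue ones, with Cdk1, Mad2l1, Aurkb, Espl1 and Pttg1 above them, and Kif11 lies far below the rest in both genotypes.

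The G2/M program is read from short promoter elements, which are shown here because most promoters of these genes share them. Promoter windows (250 bases before to 50 after the annotated start, RefSeq, GRCm38.p6) were at hand for 33 of the 41 genes, in 36 windows. Letters searched were TTTGAA, the core of the cell cycle genes homology region (CHR) that MuvB complexes bind, and CCAAT, which NF-Y binds, each on both strands. TTTGAA was in 72.2% of the windows of mitotic genes and in 12.0% of 12775 windows of tested genes. CCAAT was in 77.8% and 38.1%, and both were in 63.9% and 4.90%. TTTGAA was present in 18 of 24 windows of genes called lower and in 8 of 11 windows of genes called higher or not called, and CCAAT in 20 of 24 and 7 of 11. Both motifs were in 70.8% of the windows of genes called lower and in 54.5% of the others, few windows for a comparison. A match is a run of letters and not a measured binding site. The 250 bases upstream of the start follow for 3 genes that were lower (Ccnb2, Kif23, Ube2c), 1 that was not called (Ccnb1) and 1 that was higher (Cdk1), in lower case with matches to either motif in capitals.
Ccnb2 (chr9:70421555-70421804, minus strand): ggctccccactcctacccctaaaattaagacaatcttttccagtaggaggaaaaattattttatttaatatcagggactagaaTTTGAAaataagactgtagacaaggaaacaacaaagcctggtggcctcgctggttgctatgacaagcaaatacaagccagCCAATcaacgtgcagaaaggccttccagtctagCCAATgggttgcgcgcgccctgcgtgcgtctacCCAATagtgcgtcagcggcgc
Kif23 (chr9:61946800-61947049, minus strand): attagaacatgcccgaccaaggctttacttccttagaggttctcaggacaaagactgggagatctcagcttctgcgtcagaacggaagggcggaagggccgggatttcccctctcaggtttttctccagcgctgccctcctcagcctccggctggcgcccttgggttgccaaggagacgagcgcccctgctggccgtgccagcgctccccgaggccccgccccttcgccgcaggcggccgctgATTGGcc
Ube2c (chr2:164769679-164769928, plus strand): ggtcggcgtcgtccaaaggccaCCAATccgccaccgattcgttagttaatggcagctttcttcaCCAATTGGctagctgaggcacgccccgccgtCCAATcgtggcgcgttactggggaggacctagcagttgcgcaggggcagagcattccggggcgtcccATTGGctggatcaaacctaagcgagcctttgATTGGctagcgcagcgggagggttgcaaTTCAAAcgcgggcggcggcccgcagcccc
Ccnb1 (chr13:100786487-100786736, minus strand): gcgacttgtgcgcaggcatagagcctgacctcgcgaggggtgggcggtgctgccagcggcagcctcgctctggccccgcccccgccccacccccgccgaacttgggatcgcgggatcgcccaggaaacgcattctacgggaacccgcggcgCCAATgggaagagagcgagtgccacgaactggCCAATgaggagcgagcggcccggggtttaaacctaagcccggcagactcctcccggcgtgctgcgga
Cdk1 (chr10:69352913-69353162, minus strand): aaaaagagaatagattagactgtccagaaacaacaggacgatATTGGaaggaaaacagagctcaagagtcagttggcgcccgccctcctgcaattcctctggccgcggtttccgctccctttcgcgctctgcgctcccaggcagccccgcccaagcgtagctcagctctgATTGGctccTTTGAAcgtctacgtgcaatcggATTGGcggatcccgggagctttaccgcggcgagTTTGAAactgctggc
The Ccnb2 promoter held 3 CCAAT matches, which began 87, 54 and 21 bases before the start. Its TTTGAA matches began 167 bases before the start and at position 5 after it, the latter beyond the printed stretch. The Ccnb1 promoter held 2 CCAAT matches, which began 99 and 67 bases before the start. In Ube2c the 6 CCAAT matches include an overlapping pair on opposite strands, and the TTTGAA match began 29 bases before the start. Cdk1 held 2 TTTGAA matches, at 71 and 15 bases before the start. In Kif23 the CCAAT match began 7 bases before the start, and its TTTGAA lay beyond the printed stretch, from the base at position 3 after the start. The highest riser, Pttg1, held neither motif in its window, and neither did Mad2l1, Birc5, Kif18a and Nuf2.

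Among the genes that drive entry into mitosis, the B-type cyclins changed by different amounts. Ccnb2 (chromosome 9, 70407692 to 70421547 in mm10), which encodes cyclin B2, was at 123, 122 and 126 CPM in WT and at 68.8, 69.9 and 72.1 CPM in Yme1l-/-. The groups lay far apart, and the log2 fold change was -0.82 ± 0.04 (SE; edgeR adjusted p 2.8e-08), or -0.46 with the chromosome's median removed. Ccnb1 (chromosome 13, 100778650 to 100786570), which encodes cyclin B1, was at 278, 269.7 and 263 CPM in WT and at 255, 252 and 259 CPM in Yme1l-/-. Those groups did not overlap either, but they were close, and the log2 fold change of -0.08 ± 0.04 (SE) was not called (edgeR adjusted p 0.094), whereas it was called lower at -0.16 with the chromosome's median removed. The transcript of their kinase, Cdk1 (chromosome 10, 69335146 to 69352938), was at 394, 391 and 392 CPM in WT and at 469, 426 and 436 CPM in Yme1l-/-, and it rose by 0.18 ± 0.05 (log2 fold change ± SE, edgeR adjusted p 0.0061). With the chromosome's median removed this direction turned, and Cdk1 was called lower (-0.12). Ccna2, which encodes cyclin A2, was at 376.9 ± 9.04 CPM in WT and 353.8 ± 6.64 CPM in Yme1l-/- (mean ± SD, n = 3). It was not called, also with the chromosome's median removed (0.03, from -0.09). With the replicate number as a block it was called lower (-0.09, edgeR adjusted p 0.043).

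Of the phosphatases that activate CDK1, Cdc25b fell from 108.4 ± 2.44 to 73.0 ± 1.72 CPM (mean ± SD, n = 3), which is -0.57 ± 0.04 on the log2 scale (± SE). Cdc25c fell from 30.4 ± 1.68 to 25.5 ± 1.02 CPM, a log2 fold change of -0.25 ± 0.06 (SE) that was -0.05 and not called with the chromosome's median removed. Foxm1, the transcription factor that drives many of these genes, was at 305.3 ± 17.1 CPM in WT and 299.1 ± 7.58 CPM in Yme1l-/- and was not called. Its log2 fold change of -0.03 ± 0.05 (SE) turned to 0.03 under upper-quartile scaling and to 0.01 without WT replicate 3, but was -0.37 and called lower with the chromosome's median removed. Its locus was merged by the authors with Gm44596, Nrip2 and Tex52, and the counts cannot be divided among them.

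All 7 tested kinases and checkpoint genes were called, 6 of them lower (all loci, 67.7% called and 34.1% lower). With chromosome medians removed all 7 were called lower (all loci, 31.7%). Ttk, whose product MPS1 starts checkpoint signalling at unattached kinetochores, was at 60.8, 56.8 and 65.2 CPM in WT and at 42.5, 40.4 and 38.7 CPM in Yme1l-/-. The log2 fold change was -0.59 ± 0.06 (SE; edgeR adjusted p 5.4e-06), and with the median of its chromosome removed it was -0.23. The checkpoint genes Bub1b (-0.40 ± 0.04) and Bub3 (-0.39 ± 0.05, log2 fold change ± SE) fell by near-equal amounts. The locus named Bub3 spans 130162451 to 133124354 on chromosome 7, far beyond the gene. Genes can share such coordinates and still have separate counts, as Kif20a and Cdc23 do (10657 and 3834 fragments in WT replicate 1). The span therefore does not tell whether fragments of other transcripts are among the counts of Bub3. Aurka, which encodes the centrosomal kinase Aurora A, fell from 137.6 ± 5.02 to 101.5 ± 2.52 CPM (mean ± SD, n = 3), and Plk1, which encodes Polo-like kinase 1, from 157.5 ± 6.04 to 133.9 ± 1.48 CPM. Bub1, a kinase of the checkpoint, was called at -0.13 ± 0.04 (log2 fold change ± SE), with a call that was lost without WT replicate 3 (-0.12), without Yme1l-/- replicate 2 (-0.13) or 3 (-0.13) and under upper-quartile scaling (-0.07). Mad2l1 was the exception: MAD2, its product, binds and restrains CDC20, and its transcript went from 161, 161 and 160.0 CPM in WT to 191, 179.5 and 184 CPM in Yme1l-/-. It rose by 0.20 ± 0.04 (log2 fold change ± SE, edgeR adjusted p 0.0010), but was called lower (-0.14) with the chromosome's median removed.

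For Nek2, which encodes a centrosome kinase, 4, 9 and 6 fragments were counted in WT and 2, 8 and 8 in Yme1l-/-. With so few fragments in both genotypes no difference was detectable. Whether its reads were lost in the authors' mapping or counting was not tested, so the counts do not show that the transcript was absent.

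The chromosomal passenger complex joins Aurora B with INCENP, survivin and borealin, and corrects wrong attachments to the spindle. Aurkb, its kinase (chromosome 11, 69045647 to 69051664), was at 122, 120.2 and 123 CPM in WT and at 187, 176 and 181 CPM in Yme1l-/-, and it rose by 0.58 ± 0.04 (log2 fold change ± SE, edgeR adjusted p 3.8e-07), or by 0.22 with the chromosome's median removed. Its partners did not rise. Cdca8, which encodes borealin, fell from 105.1 ± 3.04 to 81.6 ± 2.55 CPM and Birc5, which encodes survivin, from 144.4 ± 4.97 to 128.1 ± 1.21 CPM (mean ± SD, n = 3). The log2 fold change of Birc5 was -0.17, or -0.53 with the chromosome's median removed and -0.11 under upper-quartile scaling, called each time. Incenp was at 214.1 ± 6.59 and 203.6 ± 2.64 CPM and was not called (-0.07), but was called lower (-0.19) with the chromosome's median removed. The ratio of Aurkb to Cdca8 CPM was 1.12, 1.17 and 1.19 in WT and 2.22, 2.18 and 2.27 in Yme1l-/-, so the balance of the transcripts of this complex shifted in every culture.

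At centromere and kinetochore, all 7 genes had a log2 fold change below 0, and 5 were called lower (all loci, 34.1%). Cenpa, which encodes the histone H3 variant that marks centromeres, was at 206.5, 191 and 201 CPM in WT and at 148, 142 and 151 CPM in Yme1l-/-. This was a log2 fold change of -0.44 ± 0.05 (SE; edgeR adjusted p 5.6e-06), with no overlap between the groups. Cenpf (-0.47 ± 0.11) and Cenpe (-0.38 ± 0.07, log2 fold change ± SE), which encode a large coiled-coil protein of the outer kinetochore and a kinetochore motor, fell too. The NDC80 complex, which grips microtubules, has a subunit pair of NDC80 and NUF2 and another of SPC24 and SPC25, and within each pair 1 transcript was called in the fit without chromosome correction. Nuf2 (-0.29 ± 0.04) and Spc24 (-0.44 ± 0.07) were called lower, while Ndc80 (-0.12 ± 0.05) and Spc25 (-0.06 ± 0.06, log2 fold change ± SE) were not. Ndc80 was called at -0.16 without WT replicate 1, and Spc25 was at 0.00136 under upper-quartile scaling. With chromosome medians removed the order within the first pair turned, at -0.28 for Ndc80 and -0.13 for Nuf2 (both called), and Spc24 (-0.08) and Spc25 (-0.04) were alike in not being called. The ratio of Spc25 to Spc24 CPM went from 0.796, 1.02 and 0.932 in WT to 1.14, 1.22 and 1.21 in Yme1l-/-, with little distance between the groups.

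Of the spindle motors and regulators, Kif18a had the largest called change. The product of this gene is a kinesin that dampens chromosome movements at the metaphase plate. It was at 58.5, 57.5 and 58.0 CPM in WT and at 37.1, 34.7 and 37.4 CPM in Yme1l-/-, a log2 fold change of -0.67 ± 0.05 (SE; edgeR adjusted p 3.0e-07). Its locus spans 109092297 to 109341747 on chromosome 2, where GENCODE M21 has the gene from 109280738 to 109341747. The loci of Cdc25b, Kif20a, Ccna2 and Cdc20 were also over 2 times as long as the annotated gene. For these genes too, the span does not tell whether fragments of other transcripts were counted. Tpx2, which activates Aurora A on the spindle, was called at -0.13 ± 0.04 (log2 fold change ± SE). That call was lost under upper-quartile scaling (-0.07), without WT replicate 2 (-0.13) or 3 (-0.11) and without Yme1l-/- replicate 1 (-0.09) or 3 (-0.12) and with the chromosome's median removed (-0.11). Kif2c, a kinesin that depolymerizes microtubules, was at 101.1 ± 0.929 and 95.7 ± 0.876 CPM (mean ± SD, n = 3) and was not called, also with the chromosome's median removed (0.02, from -0.08).

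For Kif11, the kinesin that pushes spindle poles apart, few fragments were counted, and whether reads were lost before counting was not tested here either. The count was 68, 53 and 72 fragments in WT against 145, 188 and 65 in Yme1l-/-. Per length it was also low, with authors' combined FPKM values (fragments scaled to transcript length and library size) of 0.407 in WT and 0.634 in Yme1l-/-, where the other tested genes lay between 16.7 and 447 in WT. Its log2 fold change of 0.62 ± 0.43 (SE) was not called, and it was called at 1.00 without Yme1l-/- replicate 3, the library with 65 fragments.

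Both genes of chromosome structure fell. Mki67, which encodes the proliferation antigen Ki-67 that coats mitotic chromosomes (chromosome 7, 135689784 to 135716361), was at 810.4, 857 and 1005 CPM in WT and at 462, 569.7 and 549 CPM in Yme1l-/-. The log2 fold change was -0.76 ± 0.10 (SE; edgeR adjusted p 7.7e-05), with a wide spread in both genotypes but no overlap. Top2a, which encodes the topoisomerase that untangles sister chromatids, fell from 976.2 ± 45.0 to 850.7 ± 21.1 CPM (mean ± SD, n = 3), which is -0.20 ± 0.05 on the log2 scale (± SE), or -0.56 with the chromosome's median removed. Length was taken from the longest protein-coding transcript annotated for each gene in GENCODE M21, which need not be the transcript that was expressed. By this measure Cenpf, Mki67 and Cenpe are the 3 longest of the set (11.1, 10.1 and 7.91 kb), and each was lowest in replicate 1 of both genotypes. Over the 40 genes, the deviation from the genotype mean had a Spearman correlation with this annotated length of -0.42 in WT replicate 1 and of -0.45 in Yme1l-/- replicate 1. It was 0.13 to 0.62 in the other 4 libraries. The genes share these libraries and are not replicates. The log2 fold changes themselves had a correlation with the annotated length of 0.14.

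Of the genes of anaphase, Ube2c and Cdc20 fell and Espl1 and Pttg1 rose, although Espl1 was not called with chromosome medians removed (-0.02). Ube2c, the ubiquitin-conjugating enzyme of the APC/C (chromosome 2, 164769898 to 164779967), was at 279, 261 and 265.5 CPM in WT and at 159, 145 and 149 CPM in Yme1l-/-. The log2 fold change was -0.83 ± 0.05 (SE; edgeR adjusted p 5.4e-08), the lowest of the set. Cdc20, the activator of the APC/C at the metaphase to anaphase transition, was at 214.7, 188 and 194 CPM in WT and at 128, 129.9 and 129.9 CPM in Yme1l-/-, and it fell by 0.62 ± 0.05 on the log2 scale (edgeR adjusted p 1.2e-06). In contrast, Espl1, which encodes separase (chromosome 15, 102296293 to 102324356), was at 149, 144 and 154 CPM in WT and at 214, 228 and 222 CPM in Yme1l-/-. It rose by 0.57 ± 0.04 (log2 fold change ± SE, edgeR adjusted p 5.5e-07). Pttg1, which encodes securin, the inhibitor of separase (chromosome 11, 43420250 to 43426251), went from 11.8, 11.7 and 10.2 CPM to 21.0, 19.1 and 19.3 CPM. It rose by 0.82 ± 0.08 (log2 fold change ± SE, edgeR adjusted p 4.1e-06), with the groups well apart, or by 0.46 with the chromosome's median removed.

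Of the genes of cytokinesis, 4 of 5 were called lower (all loci, 34.1%). Kif23, a kinesin of the centralspindlin complex (chromosome 9, 61915905 to 61946774), was at 228, 228 and 234.5 CPM in WT and at 124, 133 and 137 CPM in Yme1l-/-, a log2 fold change of -0.81 ± 0.05 (SE; edgeR adjusted p 4.5e-08), or -0.45 with the chromosome's median removed. Anln, which encodes the contractile ring scaffold anillin, fell from 449.2 ± 6.04 to 324.6 ± 10.7 CPM, Kif20a, a midzone kinesin, from 315.3 ± 7.02 to 249.9 ± 1.87 CPM, and Prc1, which bundles midzone microtubules, from 348.2 ± 5.92 to 295.5 ± 2.02 CPM (mean ± SD, n = 3). With chromosome medians removed Anln went from -0.47 to -0.11 and Kif20a from -0.34 to -0.13, and both were still called lower. Ect2, the exchange factor that centralspindlin recruits to activate RhoA, was at 197.4 ± 4.77 CPM in WT and 208.1 ± 7.41 CPM in Yme1l-/- and was not called, at 0.08 ± 0.04 (log2 fold change ± SE). It was called higher without Yme1l-/- replicate 1 (0.10), under upper-quartile scaling (0.14) and with the chromosome's median removed (0.20).

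**Figure D2:**
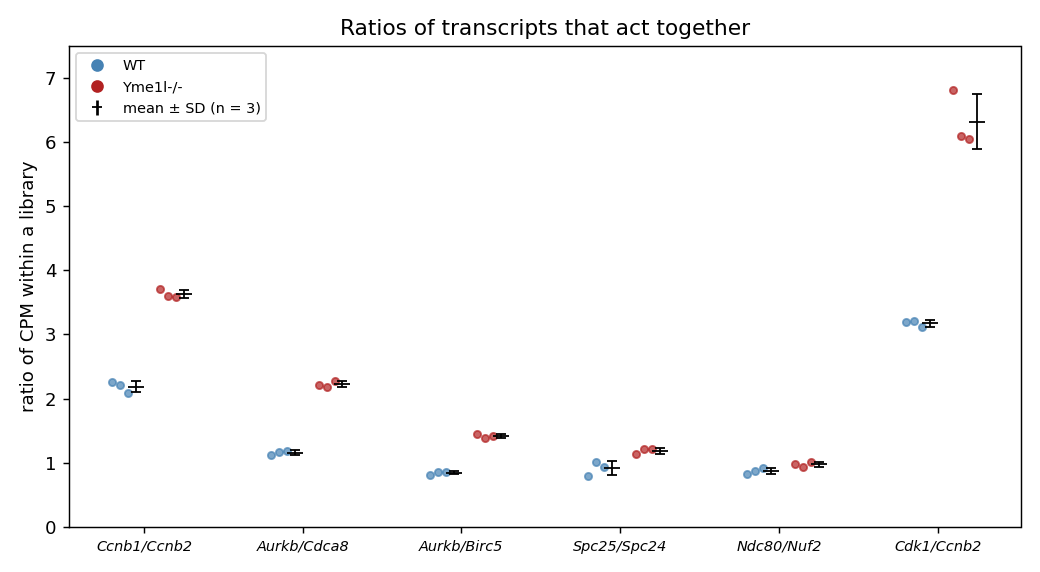
Ratio of CPM of genes whose products act together, within each library; points are cultures (blue, WT; red, Yme1l-/-), black marks are mean ± SD of 3. The Ccnb1 to Ccnb2 ratio is 2.19 ± 0.0870 in WT and 3.63 ± 0.0618 in Yme1l-/-, and the Ndc80 to Nuf2 ratio moves least, from 0.866 ± 0.0472 to 0.973 ± 0.0327.

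The plot of ratios sets transcripts of partners side by side within each library. Pairs for it were chosen after the values were seen, and the ratios are given without a test and without removal of chromosome medians. With that removal the log2 fold changes of partners lay closer for Ccnb1 and Ccnb2 (-0.16 and -0.46), for Cdk1 and Ccnb2 (-0.12 and -0.46), for Aurkb and Cdca8 (0.22 and -0.27) and for Spc25 and Spc24 (-0.04 and -0.08). They lay further apart for Pttg1 and Espl1 (0.46 and -0.02), and the order of Ndc80 and Nuf2 turned (-0.28 and -0.13). Since CPM is not scaled to length, a ratio is to be compared between genotypes and not read as a ratio of molecules. For Cdk1 to Ccnb2 it was 3.20, 3.20 and 3.11 in WT and 6.82, 6.09 and 6.05 in Yme1l-/-. For Aurkb to Birc5 it was 0.842 ± 0.0241 in WT and 1.42 ± 0.0318 in Yme1l-/- (mean ± SD, n = 3). The ratio of securin to separase transcripts went from 0.0756 ± 0.00827 to 0.0897 ± 0.00750.

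Because the loci of whole chromosomes differed between these clones, each gene was set beside the median of its chromosome. All 5 genes called higher lie on chromosomes whose tested loci had a median log2 fold change above 0.1: Aurkb and Pttg1 on chromosome 11 (0.36), Mad2l1 on 6 (0.34), Cdk1 on 10 (0.30) and Espl1 on 15 (0.59). All 5 genes of chromosome 9 (median -0.36), namely Ccnb2, Ttk, Spc24, Kif23 and Anln, were called lower. Lower calls were also made on chromosomes with medians near 0. On chromosome 2, with a median of -0.02, 7 of 8 genes were called lower (Cdc25b, Aurka, Bub1, Bub1b, Kif18a, Tpx2 and Ube2c, with Spc25 not called), and on chromosome 7, with a median of -0.01, all 4 were (Plk1, Bub3, Mki67 and Prc1). Over all chromosomes, 34.1% of tested loci were called lower and 33.6% higher. The share of loci called on each single chromosome is not given here, so these counts lack that measure of what is usual there. On chromosome 11, Top2a and Birc5 fell although the chromosome's loci were higher on balance. Of the 40 genes, 34 had a log2 fold change below the median of their chromosome.

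In the fit with each chromosome's median removed, the median of the set was -0.23. There Cdk1 (edgeR adjusted p 0.045) and Mad2l1 (edgeR adjusted p 0.011) were called lower instead of higher, and Espl1 was not called. Aurkb and Pttg1 were still called higher, joined by Ect2. Foxm1, Ndc80, Incenp and Ccnb1 were called lower in addition, while Spc24, Cdc25c and Tpx2 were no longer called. Ube2c (-0.81), Mki67 (-0.75) and Kif18a (-0.65) were then the lowest genes.

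**Figure D3:**
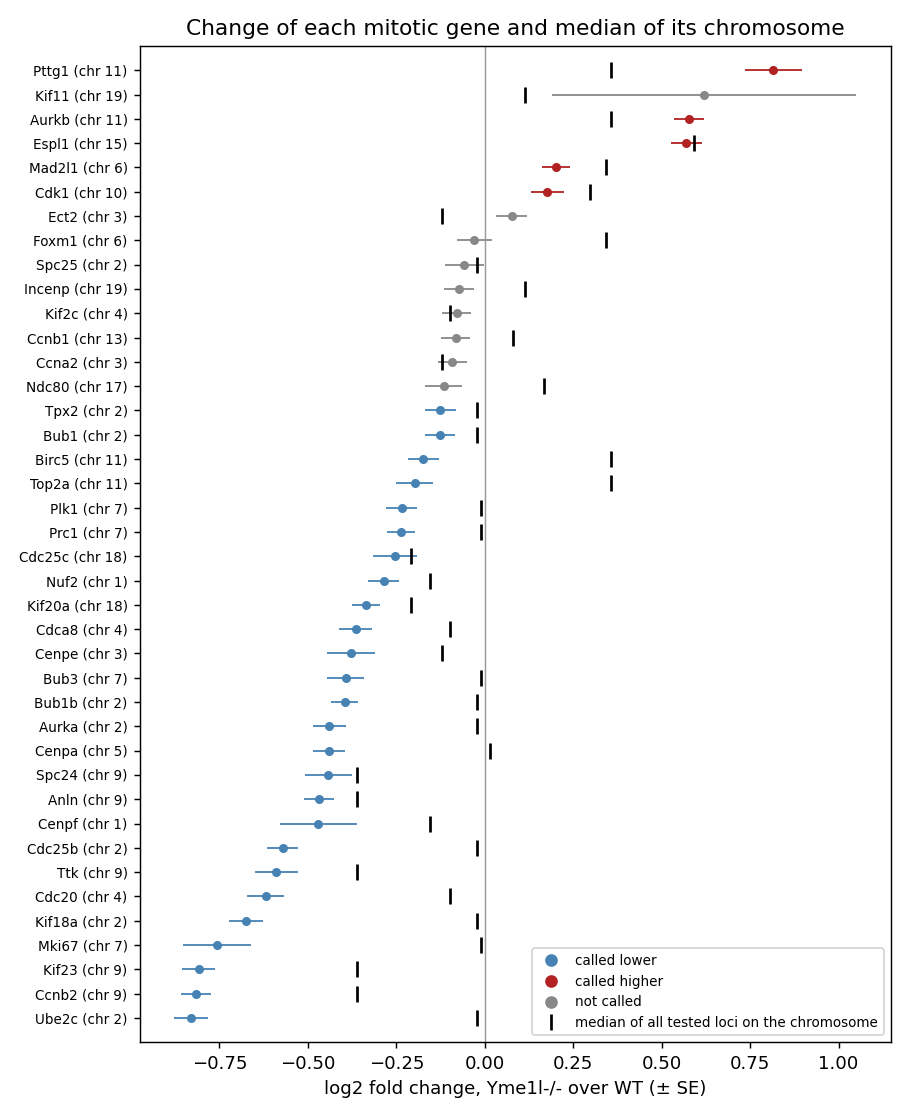
Log2 fold change of each tested mitotic gene (Yme1l-/- over WT, points with SE; blue, called lower; red, called higher; grey, not called) and the median of all tested loci on its chromosome (black ticks). Points lie left of their tick for 34 of 40 genes, and the red points belong to chromosomes 6, 10, 11 and 15, whose ticks lie between 0.30 and 0.59.

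Other genes of the pathway were also called lower more often than higher. Of 118 further tested genes of mitosis and its control, 59 were called lower and 26 higher, with a median log2 fold change of -0.15, where 34.1% and 33.6% of all loci were called. Upper-quartile scaling gave 50 lower, 34 higher and a median of -0.09. Removal of chromosome medians gave 53 lower, 23 higher and a median of -0.11, where 31.7% and 31.1% of all loci were called. Other kinetochore and centromere genes had 16 of 33 lower and 9 higher, but 12 and 12 under upper-quartile scaling. With chromosome medians removed they had 10 lower and 7 higher, and the lower share was then near that of all loci. Other spindle and centrosome genes had 12 of 29 lower and 5 higher, with a median of -0.05 that was 0.01 under upper-quartile scaling and -0.13 with chromosome medians removed. Cohesin and condensin genes had 8 of 15 lower and 5 higher (8 and 2 with chromosome medians removed). APC/C genes had 7 of 17 lower and 5 higher, not far from the shares of all loci, and 8 and 4 with chromosome medians removed. Of 6 further mitotic kinases and inhibitors, 5 were lower and 1 was higher (3 and 1 with chromosome medians removed). Among the 18 MuvB, MYB and E2F regulators, not all of which need act on the promoters of mitotic genes, 11 were called lower and 1 higher, with a median of -0.29. With chromosome medians removed, 9 of these regulators were lower and 4 higher, with a median of -0.12.

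Genes with large changes in these lists were the following. Stag1, a cohesin subunit, fell from 167.9 ± 5.39 to 89.8 ± 2.52 CPM (mean ± SD, n = 3), which is -0.90 ± 0.05 on the log2 scale (± SE). E2f8, an atypical E2F that represses transcription, fell by 0.89 ± 0.06 on the log2 scale (± SE), in a locus that spans 48866429 to 49610090 on chromosome 7, far beyond the gene. With chromosome medians removed Stag1 was at -0.54. Cenpm (1.29 ± 0.06) and Cenpk (0.73 ± 0.07, log2 fold change ± SE), members of the constitutive centromere network, rose. Cenpm, on chromosome 15, was the only gene of these lists that changed at least 2-fold, and with the chromosome's median removed it was at 0.70.

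S phase genes were set beside the mitotic ones. Of 34 tested genes of DNA replication and nucleotide supply for it, 14 were called higher and 4 lower, with a median log2 fold change of 0.09, where 33.6% and 34.1% of all loci were called. With chromosome medians removed 17 were higher and 4 lower, with a median of 0.10, where 31.1% and 31.7% of all loci were called. Upper-quartile scaling gave 19 higher and 4 lower, with a median of 0.15. Without Yme1l-/- replicate 1 there were 12 higher and 7 lower, and without WT replicate 1 the median was 0.06. Mcm2, a subunit of the replicative helicase, rose from 369.3 ± 7.17 to 612.2 ± 24.3 CPM (mean ± SD, n = 3), which is 0.73 ± 0.05 on the log2 scale (± SE) and 0.39 with chromosome medians removed. Set against the WT mean of each gene, the median S phase gene was at -0.02, 0.00 and 0.03 in WT and at 0.10, 0.09 and 0.06 in Yme1l-/- on the log2 scale. The median mitotic gene was at 0.00, -0.02 and 0.01 in WT and at -0.25, -0.24 and -0.29 in Yme1l-/-. All 3 Yme1l-/- cultures thus had lower mitotic and slightly higher S phase medians than the WT cultures, and no test was made of the difference between these lists.

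**Figure D4:**
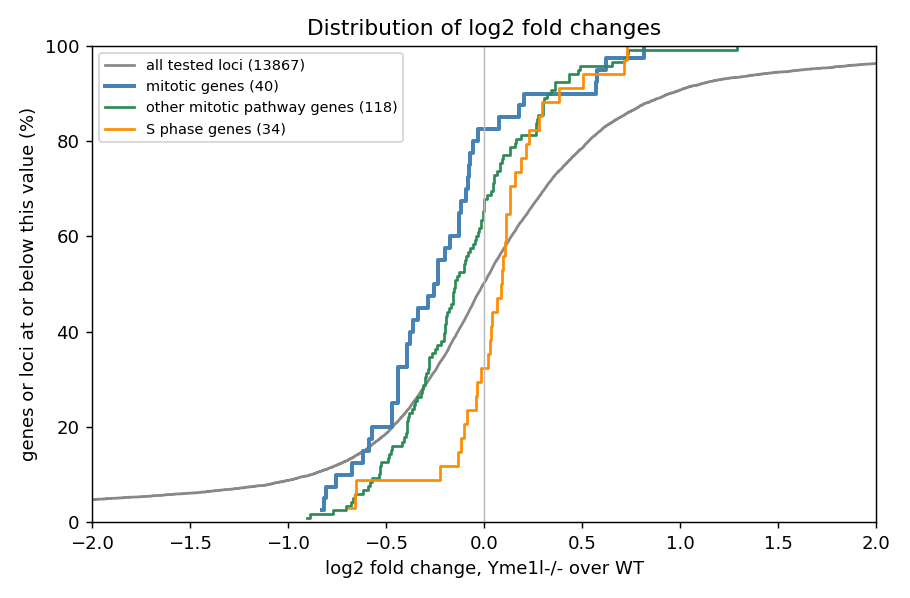
Share of genes or loci (percent, vertical axis) at or below a log2 fold change (Yme1l-/- over WT, horizontal axis), for the 40 mitotic genes (blue), 118 other genes of the mitotic pathway (green), 34 S phase genes (orange) and all 13867 tested loci (grey, whose ends lie outside the plotted range). The blue curve has its middle at -0.25, the green at -0.15, the orange at 0.09 and the grey at 0.00.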

How the data were processed

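Poly(A)-selected, stranded libraries of the 6 cultures were mapped by the authors to mm10 (GRCm38) with HISAT2 2.0.4, assembled with StringTie 1.3.3 and compared with Cuffdiff 2.2.1. The authors deposited raw fragment counts per assembled locus, without normalization. Transcripts that overlap share a locus there (635 loci), and how fragments with several positions were counted is not given in the sources used here. The authors also deposited FPKM as 1 combined value per genotype, used here only for levels per length, beside locus coordinates (starts converted to count from 1). The columns of their own comparison (fold change, test statistic, p and q) were not used.

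The analysis of counts used edgeR 4.0.16 under R 4.3.3. Loci were kept with filterByExpr (minimum count 10) and scaled with TMM, and the genotypes were compared with the quasi-likelihood test (robust, two-sided, no covariates) with Benjamini-Hochberg adjustment over 13867 loci. A call is an adjusted p under 0.05. The SE is the log2 fold change divided by the root of its F statistic. The script was tested on simulated counts. Precision from depth covers counting error only.

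The genes and lists were chosen with earlier results of these data known. All 41 genes were to be named, and, of the pathway lists, the 3 highest and 3 lowest log2 fold changes among calls with at least 10 CPM in the higher genotype. The value of a gene that this rule names is not reported here. Alternatives were RLE or upper-quartile scaling, DESeq2 1.42.0, other filters, the replicate number as a block, omission of each culture, removal of chromosome medians and thinning to the smallest library.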

Additional observations from a re-analysis of the deposited data

How the results depend on the processing

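Over the 14 alternatives, the number of mitotic genes called lower ranged from 24 to 29 and the number called higher from 3 to 6. It was 3 with chromosome medians removed. The median log2 fold change of the 40 genes was -0.186 under upper-quartile scaling, which moved the median of all loci to 0.0552, and it lay between -0.274 (without WT replicate 2) and -0.234 when a culture was omitted. That scaling made 55.1% of all calls higher calls, in place of 49.6%. Of 560 combinations of gene and alternative, 529 kept their direction and side of the threshold, 12 lost a call, 11 gained one and 8 changed sign, and 24 genes kept both under all 14. The changes of sign were those of Cdk1 (-0.12), Mad2l1 (-0.14), Espl1 (-0.0225), Ccna2 (0.0297) and Kif2c (0.0186) with chromosome medians removed, of Foxm1 (0.0295) and Spc25 (0.00136) under upper-quartile scaling, and of Foxm1 without WT replicate 3 (0.00555, where omission of WT replicate 2 gave -0.0754). Apart from what the removal does by construction, the cause was not tested. Replicate numbers were not taken as pairs, since for same-numbered libraries the correlation of deviations over all loci was 0.117, -0.0799 and 0.0427. The correlation of deviations with annotated transcript length over the 40 genes did share its sign within each number (-0.42 and -0.45, 0.17 and 0.62, 0.46 and 0.13). A gene's deviations cancel out within a genotype, so these agreements of sign are not independent of each other. Whether same-numbered cultures shared a step was not tested. In the fit with the replicate block, Ccna2 (-0.0912) and Ndc80 (-0.116) were also called lower, the median was -0.245, and 28 genes were called lower and 5 higher. Over all 152 tested genes of the pathway and S phase lists, 63 were called lower (54 to 66 over the alternatives) and 40 higher (33 to 53), and upper-quartile scaling gave 54 and 53. Few counted fragments limit the values of Nek2 and Kif11.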
